A study of Mus musculus with 3 samples.

Results

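The 9 genes examined here are regulators or markers of blood stem cell self-renewal, and binding of the retinoid X receptor RXRA around them was described: Hlf, Meis1, Mecom, Prdm16, Gfi1, Gfi1b, Procr, Fgd5 and Ctnnal1. They were chosen by name, with earlier results of these data known. They are 9 of 21883 protein-coding genes on chromosomes 1 to 19, X and Y. Every deposited RXRA peak with its summit in one of these genes or within 100 kb of it was taken, which gave 107 of the 53465 peaks in 3 libraries. No peak fell in the range of more than 1 of the genes. A peak is called gene-end where its summit lies within 1 kb of either end of the gene, internal where it lies elsewhere in the gene, and distal where it lies outside, up to 100 kb away.

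The assay was CUT&RUN: a nuclease tethered through an antibody cuts chromatin around the bound protein, and the fragments set free are read. The HSC library held 10000 haematopoietic stem cells, sorted from mouse bone marrow by the gate Lin-, cKit+, Sca1+, CD48-, CD150+. The 2 MPP libraries held 50000 multipotent progenitors each, sorted as Lin-, cKit+, Sca1+ and CD150-, with no CD48 gate named. All cells came from pools of 3 or 4 C57BL/6 mice of about 10 months. All were given 1 mM bexarotene, a synthetic RXR agonist, for 1 h. The labels give the genotype as VavCre+; WT, where the Vav promoter drives Cre in blood cells, and the growth protocol as Rxrabfl/fl, called WT. No library without the drug and none with a control antibody was used here, and the labels do not say whether the MPP libraries came from separate pools. With 1 HSC library no difference between the cell types can be tested, and no p-value is given. Expression was not measured, so the sorted identities could not be checked against marker genes.

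RXRA is a nuclear receptor that binds DNA as a pair with itself or with a partner such as the retinoic acid, liver X, vitamin D or peroxisome proliferator-activated receptors. Such pairs read direct repeats of a short element of the form AGGTCA. Self-renewal is the division of a stem cell that leaves a stem cell behind. In blood it depends on transcription factors that include Hlf, Meis1, Mecom and Prdm16 and on the repressors Gfi1 and Gfi1b, while Procr, Fgd5 and Ctnnal1 are used to mark the most immature cells.

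The libraries differed in list length and in recovered background, which limits what can be read from a missing peak. The HSC list held 4047 peaks, the MPP replicate 1 list 29848 and the MPP replicate 2 list 19570. The genome-wide background recovered from the peaks was 0.604 fragments in HSC, against 2.87 and 1.08 in MPP replicates 1 and 2. The lowest pileup called, the number of fragments over a summit, was 5, 10 and 6, or 8.28, 3.48 and 5.55 times that background. A site therefore had to stand further above background to be called in HSC than in MPP. The fold enrichment given below is the authors' value for each peak over its local background, and it is used to describe and rank peaks within a list. Brackets after a pileup give its exact Poisson 95% interval, and brackets after a share of peaks the Clopper-Pearson one. Such intervals hold counting error alone.

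RXRA peaks lay around all 9 genes in MPP and around 3 of them in HSC. HSC had 6 peaks, at Meis1, Gfi1b and Fgd5, and none at Hlf, Mecom, Prdm16, Gfi1, Procr or Ctnnal1. Such an absence was found at 53.5% of all genes. MPP replicate 1 had 67 peaks, from 3 at Mecom to 18 at Gfi1b. MPP replicate 2 had 34 peaks at 8 of the genes, from 2 at Hlf and Fgd5 to 10 at Gfi1b, and none at Prdm16. These shares are near those of the genome: 46.5% of all protein-coding genes had a peak in the gene or within 100 kb in HSC, and 84.1% and 79.6% in MPP replicates 1 and 2. The median gene of the 9 had 0, 6 and 4 peaks in the 3 libraries, and the median of all protein-coding genes was 0, 5 and 3. The Gfi1b locus stood highest among the 9: its 3 HSC peaks were exceeded at 2.89% of all genes, and its 18 and 10 peaks in MPP replicates 1 and 2 at 1.43% and 5.51%.

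**Figure D1:**
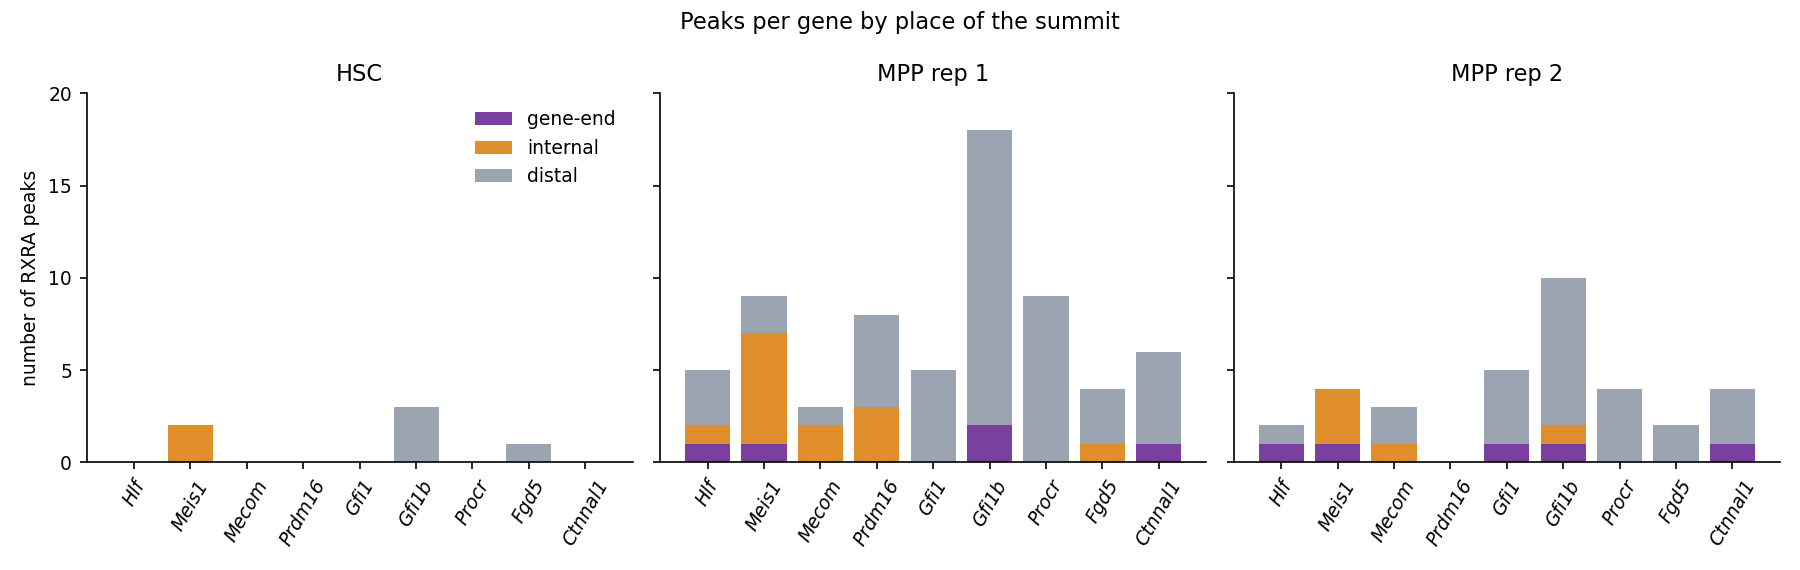
Number of RXRA peaks (vertical axis) at each of the 9 genes (horizontal axis) in the 3 libraries, stacked by gene-end, internal and distal peaks. HSC has no gene-end peak at any of the 9 genes, Gfi1b has the tallest bar in every panel, and most MPP peaks are distal.

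By class, HSC had 0 gene-end, 2 internal and 4 distal peaks, MPP replicate 1 had 5, 13 and 49, and MPP replicate 2 had 5, 5 and 24. An internal peak was present in 1 of the 9 genes in HSC (4.97% of all genes), in 5 in MPP replicate 1 (27.1%) and in 3 in replicate 2 (19.2%), before any regard to gene length. The strength of these peaks was ordinary for their lists. The median fold at the 9 genes was 5.83 in HSC, and 4.29 and 6.02 in MPP replicates 1 and 2, against 5.50, 4.39 and 5.65 over all peaks. Fold ranged from 4.47 to 6.52 in HSC, and from 2.81 to 10.6 and from 3.77 to 10.9 in MPP replicates 1 and 2, and in both MPP libraries the highest value was at the same place inside Meis1.

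**Figure D2:**
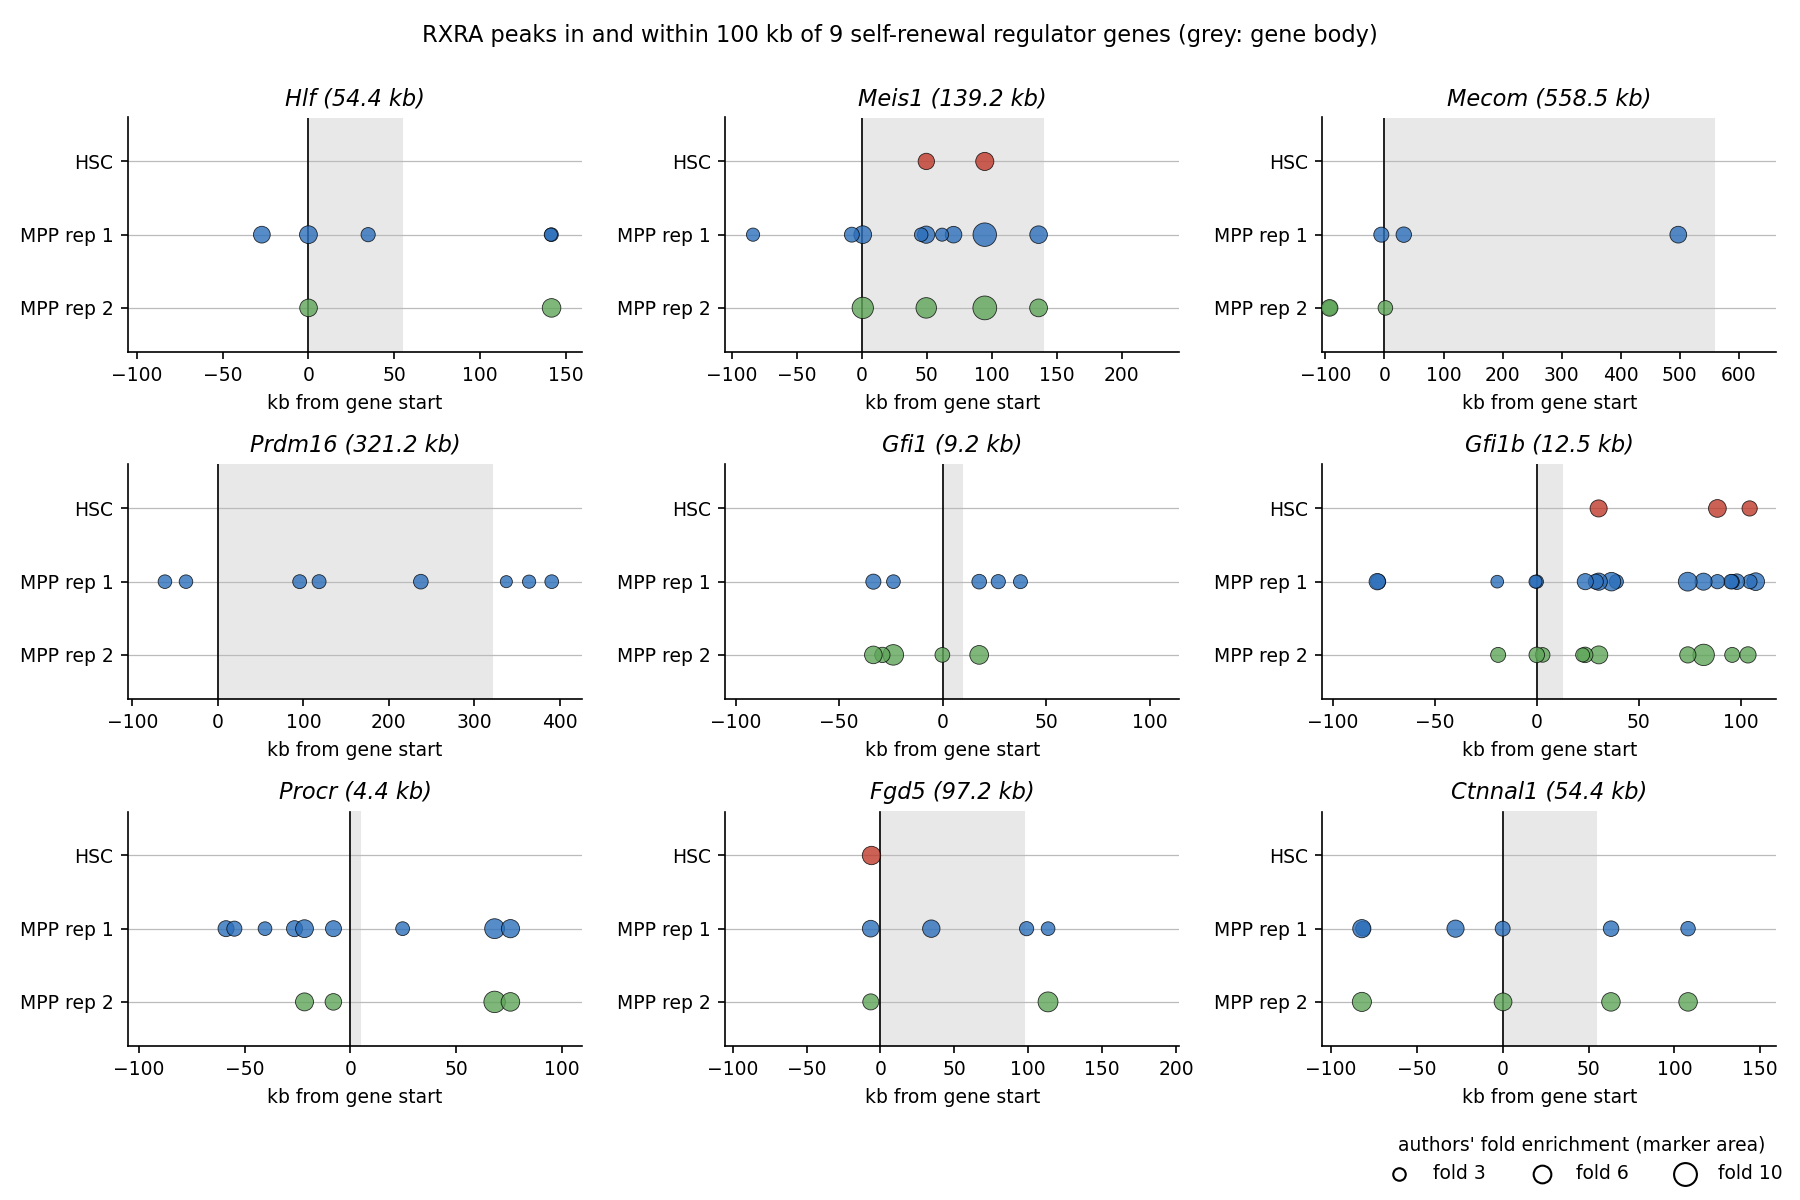
Position of every peak at the 9 genes, in kb from the gene's start in the direction of transcription (horizontal axis), in 1 lane per library. The gene body is grey and the marker area gives the authors' fold enrichment. The 6 HSC markers lie inside Meis1, near Fgd5 and past the far end of Gfi1b, and the largest MPP markers are inside Meis1, 94.6 kb from its start.

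No gene-end peak was called at the 9 genes in HSC, whereas 4 of them (Hlf, Meis1, Gfi1b and Ctnnal1) had a gene-end peak in both MPP libraries and Gfi1 had one in MPP replicate 2. Over all protein-coding genes the HSC share with a gene-end peak was 7.97%, so a count of 0 of 9 is close to this background. It was 40.0% and 35.1% in MPP replicates 1 and 2, beside 4 and 5 of the 9. The pattern of Hlf, Meis1, Gfi1b and Ctnnal1, a gene-end peak in each MPP library but none in HSC, was that of 22.4% of all genes. All 10 gene-end peaks lay at the start of transcription and none at the other end. That is the usual side, since of the genes with a known strand and a gene-end peak, 93.9% and 95.8% in MPP replicates 1 and 2 had it at the start. A peak within 1 kb of the start was found at 7.91% of genes with a known strand in HSC, and at 38.0% and 34.7% in MPP replicates 1 and 2.

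The promoters of these 5 genes are shown because their starts had the gene-end peaks, though most summits lay outside the bases printed. Those inside were of Ctnnal1 in MPP replicate 1, 191 bp before the annotated start, and of Gfi1 in MPP replicate 2, 192 bp before it. Each line gives the 250 bases before the annotated start, 5′ to 3′ on the gene's strand, from RefSeq on GRCm38.p6, which has the coordinates of mm10. Capitals mark a receptor element on either strand, in the form AGGTCA, the form GGGTCA, the form AGTTCA or the form GGTTCA.
Hlf, chr11:90390918-90391167, minus strand: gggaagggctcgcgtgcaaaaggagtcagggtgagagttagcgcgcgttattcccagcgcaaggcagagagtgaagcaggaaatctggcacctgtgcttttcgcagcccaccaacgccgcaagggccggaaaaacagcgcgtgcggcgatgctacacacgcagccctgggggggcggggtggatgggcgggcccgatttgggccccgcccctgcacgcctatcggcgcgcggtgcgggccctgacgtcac
Meis1, chr11:19018970-19019219, minus strand: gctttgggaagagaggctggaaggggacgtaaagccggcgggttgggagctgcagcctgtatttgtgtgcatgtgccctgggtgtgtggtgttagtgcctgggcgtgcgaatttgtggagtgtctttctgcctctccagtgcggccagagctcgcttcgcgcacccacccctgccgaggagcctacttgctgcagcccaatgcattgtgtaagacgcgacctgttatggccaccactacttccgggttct
Gfi1b, chr2:28621983-28622232, minus strand: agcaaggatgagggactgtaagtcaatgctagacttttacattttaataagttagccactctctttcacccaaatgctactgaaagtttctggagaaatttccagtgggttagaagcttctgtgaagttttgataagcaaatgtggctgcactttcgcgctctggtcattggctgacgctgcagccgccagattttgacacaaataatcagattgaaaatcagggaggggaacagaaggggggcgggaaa
Ctnnal1, chr4:56865212-56865461, minus strand: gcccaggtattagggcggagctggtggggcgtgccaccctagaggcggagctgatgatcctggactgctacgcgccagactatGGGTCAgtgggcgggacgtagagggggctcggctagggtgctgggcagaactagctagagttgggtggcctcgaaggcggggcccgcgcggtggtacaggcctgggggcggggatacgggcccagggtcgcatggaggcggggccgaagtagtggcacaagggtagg
Gfi1, chr5:107725806-107726055, minus strand: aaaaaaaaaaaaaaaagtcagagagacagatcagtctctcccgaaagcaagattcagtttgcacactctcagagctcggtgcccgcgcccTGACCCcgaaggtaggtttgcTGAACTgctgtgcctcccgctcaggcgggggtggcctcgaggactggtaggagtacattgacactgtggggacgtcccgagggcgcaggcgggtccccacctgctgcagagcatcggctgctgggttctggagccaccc

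Receptor elements were present in 2 of these 5 promoters. In 300 bases (250 before the start and 50 after it), Ctnnal1 held 1 GGGTCA and Gfi1 held 1 GGGTCA and 1 AGTTCA, while Hlf, Meis1 and Gfi1b held none of the 4 forms. Among the genes without a peak at the first start, Procr held AGGTCA, and the inner start of Mecom held AGGTCA and AGTTCA. At least 1 of the 4 forms was present in 4 of the 11 promoters that the table gives for the 9 genes, and in 41.2% of 21262 protein-coding promoters. Direct repeats of AGGTCA or GGGTCA with 0 to 5 bases between them were in 0 of the 11 and in 0.292% of all. The E-box CACGTG, which MYC and MAX bind, was in 0 of the 11 and in 7.84% of all, and the GATA element AGATAA in 0 of the 11 and in 9.65% of all. A missing match says only that these letters are not in these windows.

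A further feature of these promoters is their content of CG dinucleotides, which is high in most promoters that are active across tissues. Promoters were put into 3 classes of like size by CG number. In the lowest class (0 to 6 CG in 300 bases) 0.962% had a peak within 1 kb in HSC, and 9.22% and 6.61% in MPP replicates 1 and 2. In the highest class (22 to 67 CG) the shares were 14.1%, 62.3% and 58.8%. None of the 11 promoters fell in the lowest class. Among those with a peak in both MPP libraries, Hlf had 30 CG, Ctnnal1 24, Meis1 15 and Gfi1b 7. CG number did not separate them from those without a peak: the promoter of Fgd5 had 37 CG, more than 92.7% of all promoters, and no peak, and that of Prdm16 had 24 and no peak.

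**Figure D3:**
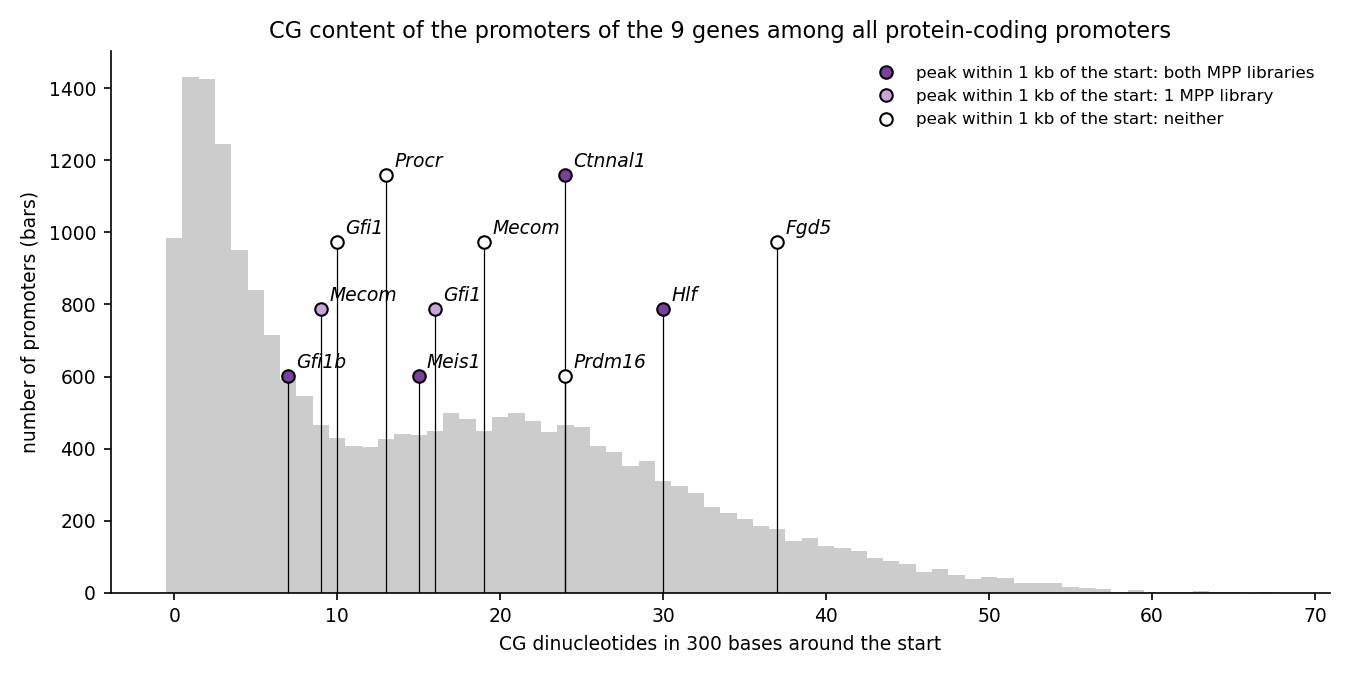
Number of CG dinucleotides in the 300 bases around each annotated start (horizontal axis) over 21262 protein-coding promoters (grey bars, vertical axis). Circles mark the 11 promoters of the 9 genes at arbitrary heights and are filled by the number of MPP libraries with a peak within 1 kb. Filled and open circles mix along the axis, with Gfi1b at 7 and Hlf at 30 both filled and Fgd5 at 37 open.

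Meis1 encodes a homeobox factor that works with HOX and PBX proteins, and it was the only one of the 9 with HSC peaks inside the gene. It lies on chr11:18880428-19019651 on the minus strand and spans 139.2 kb. Its leading site, chr11:18924761-18925286, was 94.6 kb past the start and was a peak in all 3 libraries. The fold was 6.30 in HSC, and 10.6 and 10.9 in MPP replicates 1 and 2, with pileups of 13 (6.92 to 22.2), 40 (28.6 to 54.5) and 25 (16.2 to 36.9). This peak ranked 160 of 29848 and 387 of 19570 by fold in the MPP lists and 994 of 4047 in HSC, so it was among the strongest in MPP and in the upper part of the HSC list. A second site in all 3 libraries, chr11:18969897-18970585, was 49.6 kb past the start. Its fold was 5.14 in HSC, and 5.71 and 8.07 in MPP replicates 1 and 2, and its pileup 9 (4.12 to 17.1), 23 (14.6 to 34.5) and 19 (11.4 to 29.7).

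Long genes hold more peaks, and Meis1 was compared with genes of like length. An internal peak in all 3 libraries was found at 3.95% of all genes and, of the 9, at Meis1 alone. Of the 2428 protein-coding genes over 100 kb, 18.5% had an internal peak in HSC and 15.2% in all 3 libraries. At least 2 internal peaks in each library were found at Meis1 and at 3.25% of these long genes, a count chosen after its values were seen. More internal peaks than at Meis1 were found at 0.947% of them in HSC, and at 6.34% and 10.0% in MPP replicates 1 and 2. Shorter genes held fewer: in HSC the share was 6.52% among genes of 20 to 100 kb (0 of Hlf, Fgd5 and Ctnnal1) and 1.22% among genes under 20 kb (0 of Gfi1, Gfi1b and Procr).

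Meis1 also carried a peak at its start in both MPP libraries, 48 and 46 bp past the annotated start, whose promoter is printed above. The fold was 6.03 and 8.73 in MPP replicates 1 and 2, with pileups of 29 (19.4 to 41.7) and 24 (15.4 to 35.7). Near the far end of the gene, chr11:18883549-18883855 was a peak in both MPP libraries with folds of 5.94 and 6.06. The other 5 of its 9 sites were found in MPP replicate 1 alone, with folds of 3.29 to 5.30, and 2 of these lay 7.7 and 83.7 kb before the start.

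Hlf encodes a leucine zipper factor of the PAR family that helps to keep stem cells quiescent. It lies on chr11:90336535-90390917 on the minus strand and had no HSC peak within 100 kb. Its main site was the start itself, where the summit of MPP replicate 1 was at the first base of the gene and that of MPP replicate 2 was 57 bp past it. The fold was 6.09 and 5.97 in MPP replicates 1 and 2, with pileups of 28 (18.6 to 40.5) and 15 (8.40 to 24.7). The only other site in both MPP libraries, chr11:90249130-90249538, was at an end of the neighbouring gene Mmd, with folds of 3.62 and 6.64. MPP replicate 1 alone had an internal peak 34.8 kb past the start with a fold of 3.89, and a peak 27.1 kb before the start with a fold of 5.41. In that library 39.7% of genes of 20 to 100 kb had an internal peak, and of the 9 Hlf and Fgd5 did.

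Mecom and Prdm16 encode related zinc finger proteins with a PR domain, and neither had a site in more than 1 library. Mecom, on chr3:29951296-30509759 on the minus strand, is the longest of the 9 at 558.5 kb and held 2 internal peaks in MPP replicate 1 and another in replicate 2. The strongest in the gene, chr3:30012197-30012453, had fold 5.40 and pileup 20 (12.2 to 30.9) in MPP replicate 1. It lay 497.5 kb past the first start but only 927 bp past an inner annotated start, so it counts as internal here. In MPP replicate 2 a peak with a fold of 4.09 lay 1.5 kb past the first start, and in MPP replicate 1 a peak with a fold of 4.37 lay 5.4 kb before it. The other 2 Mecom peaks, in MPP replicate 2, were at an end of Mynn.

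Prdm16, on chr4:154316122-154637360 on the minus strand, had 8 peaks in MPP replicate 1 and none in the other libraries. Its 3 internal peaks had folds of 3.71 to 4.13 and pileups of 15 to 18, and its 5 distal peaks had folds of 2.81 to 3.62. All 8 were below the median fold of their list, 4.39. The weakest, at an end of Arhgef16, had a q of 0.0425. Internal peaks in MPP replicate 1 were found at 65.5% of genes over 100 kb, so internal peaks at Mecom, Prdm16 and Meis1 are common for their length. In MPP replicate 2 the share was 48.6%, beside 2 of these 3.

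Gfi1 and Gfi1b encode zinc finger repressors of the same family, and their peaks lay mostly outside the genes. Gfi1b, on chr2:28609450-28621982 on the minus strand, had 22 distinct sites, of which 1 was in all 3 libraries, 5 more in both MPP libraries and 2 in HSC and MPP replicate 1. The site in all 3, chr2:28591380-28591859, lay between genes, about 17.9 kb past the far end of Gfi1b and 30.4 to 30.5 kb past its start. Its fold was 5.61 in HSC, and 5.69 and 6.19 in MPP replicates 1 and 2, and its pileup 8 (3.45 to 15.8), 21 (13 to 32.1) and 13 (6.92 to 22.2). A neighbouring site, chr2:28597888-28598469, was a peak in both MPP libraries with folds of 5.01 and 4.64.

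Further past Gfi1b, 9 sites lay inside the neighbouring gene Ralgds, which encodes an exchange factor for the GTPase RAL. Whether they belong to Gfi1b or to Ralgds cannot be told from peak positions. HSC had peaks at 2 of them, the MPP libraries at 8 and 4, and none was in all 3. The HSC peak chr2:28533285-28533586 had fold 6.05 and pileup 9 (4.12 to 17.1), and its counterpart in MPP replicate 1 a fold of 3.91. The HSC peak chr2:28517428-28517699 had a fold of 4.47, and its counterpart a fold of 3.82. Of the sites in Ralgds found in both MPP libraries, the strongest were chr2:28539955-28540391, with folds of 5.60 and 8.79, and chr2:28547769-28548174, with folds of 6.80 and 5.06. Neither was a peak in HSC.

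The start of Gfi1b had a weak peak in both MPP libraries, 52 and 57 bp past the start. The fold was 3.44 and 4.65 in MPP replicates 1 and 2, with pileups of 15 (8.40 to 24.7) and 12 (6.20 to 20.96), both below the median fold of their lists. MPP replicate 1 had a second peak 562 bp before the start with a fold of 3.29, and MPP replicate 2 an internal peak with a fold of 4.104. In that library 7.11% of genes under 20 kb had an internal peak, against 11.2% in MPP replicate 1, where none of Gfi1, Gfi1b and Procr had one. For genes of 20 to 100 kb the MPP replicate 2 share was 28.6%, beside 0 of 3. Before the start, sites lay at ends of Tsc1, an inhibitor of the mTOR pathway, and of Spaca9.

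Gfi1, on chr5:107716655-107725805 on the minus strand, had 7 sites and no HSC peak within 100 kb. The peak at its start was in MPP replicate 2 alone, 192 bp before the start, with fold 4.19 and pileup 11 (5.49 to 19.7). A gene-end peak in MPP replicate 2 and not in replicate 1 was found at 7.09% of all genes. The stronger sites were distal and in both MPP libraries. The site chr5:107708098-107708459, 17.6 kb past the start, lay between genes and had folds of 4.13 and 6.73. The site chr5:107749492-107749926, 23.8 to 23.9 kb before the start and inside Evi5, had folds of 3.62 and 8.08, and chr5:107759157-107759533, 33.5 kb before the start and also inside Evi5, had folds of 4.39 and 5.97.

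Of the 3 marker genes, Fgd5 alone had an HSC peak. Fgd5 encodes an exchange factor for the GTPase CDC42 and lies on chr6:91978827-92076005 on the plus strand. Its HSC peak was at chr6:91972166-91972490, 6.6 kb before the start and between genes, and it had the highest fold of the 6 HSC peaks. The site was a peak in all 3 libraries, with folds of 6.52 in HSC, and 5.37 and 4.94 in MPP replicates 1 and 2 and pileups of 10 (4.80 to 18.4), 23 (14.6 to 34.5) and 11 (5.49 to 19.7). The start of Fgd5 had no peak in any library. An internal peak 34.4 kb past the start, chr6:92013142-92013526, was in MPP replicate 1 alone, with fold 5.83 and pileup 27 (17.8 to 39.3). Past the far end, chr6:92091923-92092466 was at an end of Nr2c2, which encodes the orphan nuclear receptor TR4, with folds of 3.62 and 7.61 in MPP replicates 1 and 2.

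Procr encodes the endothelial protein C receptor and lies on chr2:155751125-155755478 on the plus strand. It had no peak in the gene or at its ends, and its 9 sites were distal and found in MPP only. The nearest, chr2:155742967-155743345, lay between genes 8.0 and 8.1 kb before the start, in both MPP libraries, with folds of 4.92 and 5.27 and pileups of 20 (12.2 to 30.9) and 11 (5.49 to 19.7). The strongest, chr2:155819075-155819479, was 68.1 kb past the start, where the ends of Mmp24, BC029722 and Eif6 lie together. Its folds were 7.57 and 8.83, with pileups of 38 (26.9 to 52.2) and 28 (18.6 to 40.5). Other sites in both MPP libraries lay at the ends of Edem2 and of Eif6, a ribosome assembly factor.

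Ctnnal1 encodes alpha-catulin, a relative of alpha-catenin, and lies on chr4:56810935-56865375 on the minus strand. Its start had a peak in both MPP libraries, with folds of 4.29 and 6.08 in MPP replicates 1 and 2 and pileups of 19 (11.4 to 29.7) and 16 (9.15 to 26.0). In both libraries the peak covered all 300 bases of the promoter printed in part above, the GGGTCA included. It had no internal peak in any library. Of its 5 distal sites, 3 were in both MPP libraries. The strongest of these, chr4:56947309-56947658, was at an end of Tmem245, with folds of 6.36 and 7.02 in MPP replicates 1 and 2.

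Most distal peaks lay at or in other genes, and most peaks of the whole MPP lists also lay at or in genes. Of the 77 distal peaks in 3 libraries, 26 lay within 1 kb of an end of another protein-coding gene, 26 elsewhere inside another gene and 25 between genes. Over the whole MPP replicate 1 list, 8650 peaks lay at gene ends, 11179 elsewhere inside genes and 10019 outside genes. In the MPP replicate 2 list these numbers were 7060, 6590 and 5920. None of the 4 distal HSC peaks lay at another gene's end, and no such count over the whole HSC list is given. A distal peak is thus placed by distance alone, and which gene it acts on was not measured.

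Merged across libraries, the 107 peaks formed 76 sites. Of these, 4 were in all 3 libraries, 21 in both MPP libraries without HSC, 2 in HSC and MPP replicate 1, 40 in MPP replicate 1 alone, 9 in MPP replicate 2 alone and none in HSC alone. The 4 in all 3 libraries were both inner Meis1 sites, the site past Gfi1b and the site before Fgd5. All 6 HSC peaks had a counterpart in MPP (100%, interval 54.1 to 100), and over all HSC peaks the share was 85.2%. Each of the 6 overlapped MPP replicate 1 and 4 overlapped MPP replicate 2 (66.7%, 22.3 to 95.7). Over all HSC peaks the order was the reverse, with 70.8% overlapping replicate 1 and 76.1% replicate 2.

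Sharing between the MPP libraries was near that of the whole lists. Of the 67 MPP replicate 1 peaks, 25 overlapped replicate 2 (37.3%, 25.8 to 50.0, against 44.9% over all peaks), and of the 34 MPP replicate 2 peaks 25 overlapped replicate 1 (73.5%, 55.6 to 87.1, against 68.1%). By class, 4 of 5 gene-end peaks of MPP replicate 1, 3 of 13 internal and 18 of 49 distal peaks were shared. Over that whole list, with peaks placed against all protein-coding genes, the shares were 61.4% at gene ends, 38.7% elsewhere inside genes and 37.6% outside genes, so gene-end peaks were shared most often there too. Distal peaks of the 9 can be at or in another gene and have no exact match among these. Shared peaks were stronger: in MPP replicate 1 the median fold was 5.37 for the 25 shared and 3.90 for the 42 others, and in MPP replicate 2 it was 6.59 for 25 and 4.26 for 9. The same held over all peaks, with 4.96 against 4.12 and 6.01 against 5.07.

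**Figure D4:**
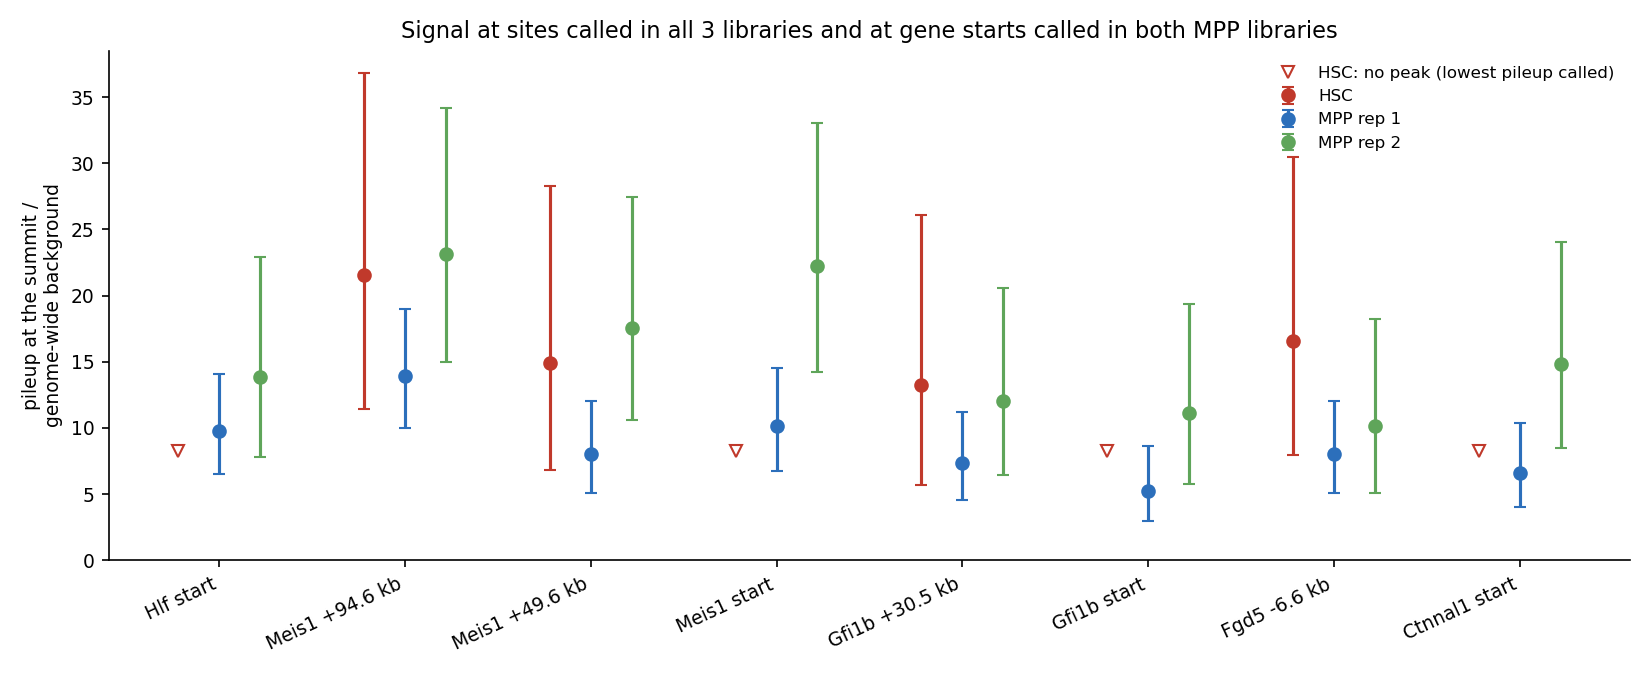
Pileup at the summit divided by the genome-wide background of its library (vertical axis) at the 4 sites found in all 3 libraries and the 4 gene starts found in both MPP libraries (horizontal axis, distance from the gene's start). Bars are exact Poisson 95% intervals, and open triangles mark the lowest pileup called in HSC, 8.28 times background, where HSC had no peak. The HSC intervals overlap those of both MPP libraries at all 4 shared sites.

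At the 4 sites in all 3 libraries the intervals of signal over background in HSC overlapped those of both MPP libraries. At the leading Meis1 site it was 21.5 (11.5 to 36.8) in HSC, 13.9 (9.96 to 19.0) and 23.1 (14.97 to 34.1) in MPP replicates 1 and 2. At the Fgd5 site it was 16.6 (7.95 to 30.4), 8.01 (5.08 to 12.02) and 10.2 (5.08 to 18.2). The intervals are wide in HSC, where they rest on 8 to 13 fragments. These sites were taken because HSC called them, and its lowest called pileup was 8.28 times background. The overlap therefore cannot show that the signal is alike in HSC and MPP.

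To see which MPP peaks could have been called in HSC, their pileups were scaled to the HSC background. Of the 61 MPP replicate 1 peaks without an HSC counterpart, 14 would have had at least the lowest pileup called in HSC, 5, and 0 would have reached the median called, 9. Over all such peaks of that list the shares were 19.3% and 0.754%. Of the 30 in MPP replicate 2, 29 would have reached 5 and 6 would have reached 9, and over the whole list 92.0% and 21.3%. Of these 6 in MPP replicate 2, the Meis1 start had a scaled pileup of 13.4. The site past Procr where the ends of Mmp24, BC029722 and Eif6 lie together had 15.6. The site in Ralgds past Gfi1b had 15.1, and the Nr2c2 end past Fgd5 had 10.1. Sites in Evi5 near Gfi1 and at Tmem245 near Ctnnal1 both had 9.50. Scaled from MPP replicate 1, none of these sites reached 9. The Meis1 start then had 6.10, the site past Procr 7.997, and the sites in Ralgds and at Tmem245 both 5.68. The Nr2c2 end and the Evi5 site both had 2.74, below the lowest pileup called in HSC. At the same genes, the MPP libraries thus differ in how many HSC peaks the scaling expects. From replicate 2 to replicate 1 it also expects more than is seen: all 9 MPP replicate 2 peaks without a replicate 1 counterpart would have reached the median pileup called in replicate 1, 18, as would 99.5% of all such peaks. In the other direction, 0 of 42 would have reached the median called in replicate 2, 13, and 1.28% of all such peaks.

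When each list is read only to its 4047 peaks of highest fold, the length of the HSC list, 6 peaks of MPP replicate 1 and 7 of MPP replicate 2 remained at the 9 genes, beside the 6 of HSC. In MPP replicate 1 they were at Meis1, Procr (2), Gfi1b (2) and Ctnnal1, and in MPP replicate 2 at Meis1 (3), Procr, Gfi1b, Gfi1 and Fgd5. No Hlf, Mecom or Prdm16 peak was among them in either library. Shares over all genes at this list length are not given, so neither these counts nor the missing genes can be called particular to the 9.

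Other genes with published roles in, or expression that marks, blood stem cell self-renewal, 35 in number, were counted in the same way. A gene-end peak was present at 11 and 8 of the 35 in MPP replicates 1 and 2, beside the 40.0% and 35.1% of all genes given above. It was in both MPP libraries at 5 of the 35 and 4 of the 9, and at 28.0% of all genes. The difference between the lists was not tested. Those in both MPP libraries were Pbx3, with folds of 7.44 and 8.16, Tal1, a stem cell master regulator, with 4.74 and 10.2, Kit, the receptor for stem cell factor, with 6.68 and 5.12, Mllt3 with 4.82 and 4.39, and Lyl1 with 4.07 and 5.99. By the distance of log2(fold + 1) over 6 values, the strongest gene-end and internal peak in each library, Runx1 was the nearest of the 35 to Meis1, at a distance of 2.96, with Pbx3 next at 3.14.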

How the data were processed

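RXRA CUT&RUN was described in 1 HSC and 2 MPP libraries, grouped by their titles. Per the submitters' processing notes, coordinates are on mm10, and the software listed is MACS2 2.1.4, Bowtie2 2.3.4.1, cutadapt 1.9.1 and Trim Galore 0.4.2. For settings, duplicate reads and a control library nothing is given in the sources used here. The authors deposited 1 peak list per library, in 10 columns without a header, so each library was called by itself. Their deposited fold enrichment is a ratio to local background. The deposited −log10 p and −log10 q were used unchanged (weakest q 0.0995, 0.0971 and 0.0993). The deposited score, 10 times −log10 q, was not used.

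Pileup and local background were solved from each peak's fold and p (pileup plus 1 over background plus 1, Poisson tail). Pileups came out whole, to 0.001 in −log10 p, for 99.98%, 100% and 99.99% of peaks, and 2000 simulated peaks were all recovered. The genome-wide background is the commonest recovered value. No read totals are given, so depth itself was not measured, and this background was used in its place. Peaks overlapped if they shared 1 bp. Genes, strands and promoters came from RefSeq tables of GRCm38.p6, and no genome sequence was used, so peaks were not searched for motifs and exons were not told from introns. Starts within a gene other than its outer end are named only where a peak lay near. Strand was known for 17491 genes. Python 3.11.15, pandas 2.3.3 and scipy 1.17.1 were used. The 9 genes, the list of 35 and the class limits were chosen with earlier results of these data known. Named were the 9, up to 6 of the 35 by number of libraries with a gene-end peak, with ties broken by the HSC fold and next by that of MPP replicate 1, and the gene of the 35 nearest in pattern to each member with an HSC peak in the gene. No neighbouring gene met the rule for naming (its end at a distal peak found in all 3 libraries), so the neighbours and the second nearest gene were named after their values were seen. Some results that these rules or lists cover are not reported here.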

Additional observations from a re-analysis of the deposited data

How the results depend on the processing

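Of 69 alternative values, 44 stayed within 1.5 times the count or within the counting interval of the share, and 25 did not. No paired analysis was possible because HSC has 1 library, whose title gives no replicate number to pair it with an MPP library. No result comes from a test. Windows of 500 bp or 5 kb at gene ends, and counting any base of a peak, kept the gene-end counts within that range, as did 50% coverage or a gap of 1 kb for the shares. With each MPP list held to the HSC length, genes of the 9 with a gene-end peak numbered 0 in MPP replicate 1 and 1 in replicate 2. Gene-end, internal and distal peaks then numbered 0, 1 and 5 in replicate 1 and 1, 2 and 4 in replicate 2. HSC peaks with a counterpart fell to 16.7% in replicate 1, 33.3% in either and 16.7% in both, and of the 7 replicate 2 peaks 28.6% had a counterpart in HSC and 28.6% in replicate 1. With q at or below 1e-05, genes with a gene-end peak numbered 3 in MPP replicate 2, gene-end peaks 3 in each MPP library, internal peaks 1 in HSC, 7 in replicate 1 and 3 in replicate 2, and distal peaks 1 in HSC and 22 in replicate 1. With distal peaks to 50 kb only, they numbered 2, 27 and 13 in the 3 libraries, and without those at other gene ends 14 in MPP replicate 2. The share of HSC peaks with an MPP counterpart was 66.7% without MPP replicate 1 and 100% without replicate 2. The settings behind these values shorten the lists or ranges or leave out a library, and the cause of the changes was not tested. Shares over all genes at these settings are not given, so the changes cannot be called particular to the 9 genes. The short HSC list and its low recovered background limit every statement on a missing HSC peak, and depth itself was not measured.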
